A study of Mus musculus with 12 samples.

Results

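The capillary wall of the cortex was read through 8 marker genes, 5 of endothelial cells (Cldn5, Flt1, Pecam1, Slco1a4 and Kdr) and 3 of pericytes (Pdgfrb, Rgs5 and Vtn), chosen as textbook markers of these cells among 55073 gene records. All 8 were detected, meaning an expected count of at least 10 in every library, as were 15002 genes in all. RNA-seq was deposited for 6 numbered mice (678, 687, 688, 698, 700 and 703), 1 library per mouse. The study compared male mice that carry the Nestin-Cre transgene alone (called WT in the labels) with Nestin-Cre;Larp1-flox/flox mice (called KO or cKO), so every animal of either genotype carries Cre. The labels describe 12 cortex samples, 6 WT and 6 KO, from total RNA depleted of ribosomal RNA. The study sequenced posterior cortex of 3 male WT and 3 male cKO mice, and also RNA of synaptosomes from the isocortex. The 6 libraries were taken as cortex here, and whether any holds synaptosome RNA was not tested. Which mouse has which genotype could not be learnt from the labels, the methods or the files, and the tissue of each library is inferred from the labels, so values are given per library and no genotypes are compared. Neither the labels nor the methods used here give an age for these animals.

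Brain capillaries are tubes of endothelial cells joined by tight junctions, with pericytes set in the shared basement membrane outside them. Endothelial cells secrete the ligand PDGF-B, pericytes answer through the receptor PDGFR-beta, and the pericyte coat is known to keep the blood-brain barrier closed. Nestin-Cre is active in progenitors of neurons and of some glia, a lineage to which endothelial cells do not belong. Larp1 binds mRNAs that begin with a 5' terminal oligopyrimidine (TOP) motif and controls their translation and stability. Whether Cre acted in any vascular cell was not tested here. Cortex tissue holds few vascular cells, and in bulk RNA fewer cells of a type and less RNA per cell cannot be told apart.

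The transcript starts of the members are shown because Larp1 recognises the first bases of an mRNA. Each line gives the first 25 bases of the isoform with the highest median TPM, from GENCODE M21 transcripts (GRCm38), with the unbroken run of pyrimidines from base 1 in capitals.
Cldn5-201: agttggtgtagttaaaacctcctct
Flt1-202: agcgaggtccttgagaggctcggag
Kdr-201: CCTgagtcctcaggaccccaagaga
Pecam1-203: gccgccattacctgacaagtaccag
Slco1a4-203: gaccgtcttctaaggctccttcatg
Rgs5-201: agattattgaagtttccacagacgg
Vtn-201: gggttttctgtttcccagctctcct
A TOP start was taken as C at base 1 followed by at least 4 pyrimidines. None of these starts, nor that of Pdgfrb, met this definition, and no other isoform of a member with a median above 0 did either. Among 13617 detected nuclear protein-coding genes, 320 (2.35%) had such a start. Kdr came nearest, with C at base 1 and a pyrimidine run of 3 bases. Annotated starts are not measured starts, so these letters describe the annotation only.

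Flt1 and Kdr encode the VEGF receptors VEGFR1 and VEGFR2, and Flt1 is known to make a soluble form that binds VEGF and lacks the membrane and kinase parts. The pair below shows where the soluble-form transcript, Flt1-203, leaves the full-length one, Flt1-202, since the shares of these isoforms are among the results. Lower case gives the last 30 shared bases and capitals the first 30 that differ.
Flt1-202: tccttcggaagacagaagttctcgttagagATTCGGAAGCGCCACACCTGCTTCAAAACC
Flt1-203: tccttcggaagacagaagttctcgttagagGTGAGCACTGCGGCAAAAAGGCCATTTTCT
Both transcripts lie on the minus strand of chromosome 5 of GRCm38, and the last shared base is at position 147639225. Flt1-202 then skips an intron of 4701 bases and goes on in exon 14 of 30, at position 147634523. Flt1-203 reads on into that intron from position 147639224, within its last exon, the 13th. The coding sequence is 3999 bases (1333 codons) in Flt1-202 and 2064 bases (688 codons) in Flt1-203, of which 92 bases are its own.

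The promoters of both receptors are shown because their RNA kept a narrow ratio across libraries. The RefSeq table (GRCm38.p6) matched 6 of the 8 members and gives 250 bases before and 50 after the start. Capitals mark 3 motifs, searched on both strands. The ETS core, bound by ETS factors, was searched as GGAAG. The TATA box was searched as TATAAA. The cAMP response element, which is its own reverse complement, was searched as TGACGTCA. None of these motifs overlaps another in the 2 sequences.
Flt1 promoter, chr5:147725962-147726261, minus strand: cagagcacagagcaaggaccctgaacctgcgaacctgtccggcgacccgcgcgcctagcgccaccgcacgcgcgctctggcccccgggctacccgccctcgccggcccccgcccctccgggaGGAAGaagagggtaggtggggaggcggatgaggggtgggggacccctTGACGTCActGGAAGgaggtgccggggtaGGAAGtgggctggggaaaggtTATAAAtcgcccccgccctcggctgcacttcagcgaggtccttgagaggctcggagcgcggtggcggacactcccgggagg
Kdr promoter, chr5:75978406-75978705, minus strand: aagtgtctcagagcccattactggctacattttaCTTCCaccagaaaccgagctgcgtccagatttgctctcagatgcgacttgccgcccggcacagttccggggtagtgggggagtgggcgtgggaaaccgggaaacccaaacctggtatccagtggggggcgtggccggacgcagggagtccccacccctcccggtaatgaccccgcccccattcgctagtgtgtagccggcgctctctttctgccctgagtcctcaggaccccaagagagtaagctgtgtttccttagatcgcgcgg
The Flt1 window held 3 ETS cores, 1 TATA box and 1 cAMP response element, and the Kdr window held 1 ETS core. Of 27025 promoters of this length, 71.1% held an ETS core, 14.2% a TATA box and 1.88% a cAMP response element. A match is a description of the letters and not a site.

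Levels are given first in TPM as deposited, a length-scaled share of RNA, with libraries always in the order 678, 687, 688, 698, 700 and 703. Total expected counts ran from 34689262 to 44463362 per library. Nuclear protein-coding genes held only 22.7% to 28.8% of TPM, so each level was also rescaled to that class alone (rescaled TPM). Larp1, the targeted gene, ran from 25.2 to 77.1 rescaled TPM over the 6 libraries, with a median of 51.1, and no genotype was read from it. Slc17a7, the vesicular glutamate transporter of cortical neurons, ran from 347 to 492 TPM. The library of mouse 688 stood apart in immediate early genes, 6 genes induced by neuronal activity, which summed to 2093 rescaled TPM there and to 547 to 1041 in the others.

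Cldn5 encodes claudin-5, the main tight junction strand protein of brain endothelium, and lies on chromosome 16 of GRCm38 from 18776847 to 18778262 on the plus strand. It was at 6.72, 6.9, 4.05, 4.55, 3.84 and 4.77 TPM, and at 25.8, 28.1, 16.6, 17.8, 16.9 and 16.6 rescaled TPM. Mice 678 and 687 were high and the other 4 libraries lay close together, with no value between 17.8 and 25.8 rescaled TPM. Counts ran from 197 to 394, and the highest library was 1.76 times the lowest on TMM-scaled CPM (95% counting interval 1.49 to 2.1). Here and for the other members, this interval covers counting error between 2 libraries picked as the extremes, so it describes the range and is no test.

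Flt1, the VEGFR1 gene (chromosome 5, 147561604 to 147726011, minus strand), was at 4.16, 4.92, 3.82, 3.97, 3.1 and 3.84 TPM. Rescaled, it was at 15.96, 20.04, 15.7, 15.6, 13.7 and 13.3. Mouse 687 was highest, and mice 700 and 703 were the lowest. With 767 to 1353 counts, its range on TMM-scaled CPM was 1.54-fold (counting interval 1.41 to 1.69).

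Kdr, the VEGFR2 gene and the main signalling receptor for VEGF-A, lies on the same chromosome from 75932827 to 75978458 on the minus strand. It had the lowest level per length of the members, at 0.75, 1.01, 0.76, 0.75, 0.62 and 0.79 TPM. Rescaled, it was at 2.88, 4.11, 3.11, 2.94, 2.74 and 2.74, with mouse 687 apart from the other 5. The counts were 146 to 259, and the range was 1.5-fold on TMM-scaled CPM (counting interval 1.22 to 1.84). Flt1 over Kdr in TPM nonetheless stayed between 4.86 and 5.55 in all 6 libraries.

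Pecam1 encodes CD31, an adhesion protein of endothelial junctions (chromosome 11, 106654217 to 106750628, minus strand). It was at 2.55, 2.69, 1.73, 2.17, 1.64 and 2.0 TPM, and at 9.78, 10.96, 7.09, 8.51, 7.24 and 6.94 rescaled TPM. Mice 687 and 678 were again the highest. Its range on TMM-scaled CPM was 1.65-fold (counting interval 1.38 to 1.97) over 199 to 371 counts.

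Slco1a4 encodes an organic anion transporter of the barrier, Oatp1a4 in the mouse, on the minus strand of chromosome 6 from 141805440 to 141856199. It was at 4.44, 3.89, 5.14, 4.44, 3.0 and 4.77 TPM, and at 17.03, 15.8, 21.1, 17.4, 13.2 and 16.6 rescaled TPM. Its order differed from that of the other endothelial members, with mouse 688 highest, mouse 700 lowest and mouse 687 the second lowest on the rescaled scale. Its counts were 303 to 456 and its range on TMM-scaled CPM was 1.45-fold (counting interval 1.25 to 1.68). The ratio of Cldn5 to Slco1a4 in TPM ran from 0.788 in mouse 688 to 1.77 in mouse 687. Of its close relatives, Slco1a1 had 0 counts in all 6 libraries, Slco1a5 at most 2 counts and Slco1a6 at most 1.

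**Figure D1:**
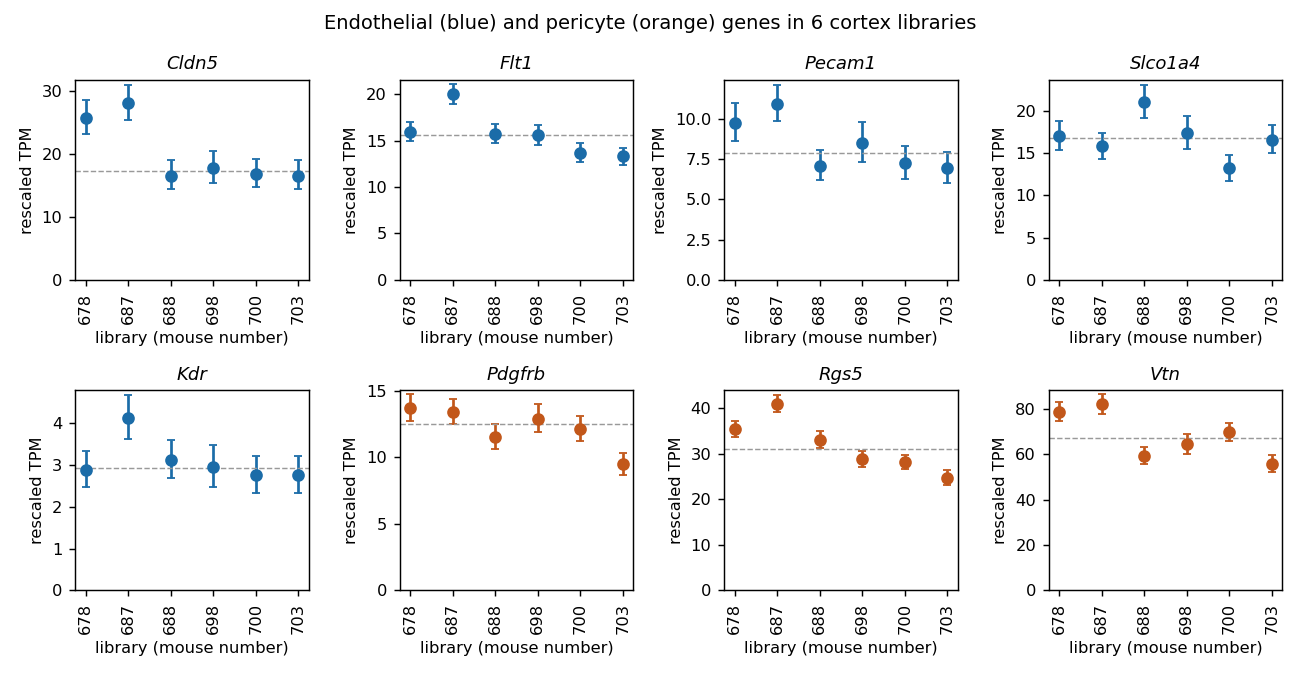
Rescaled TPM (y axis, from 0) of the 5 endothelial genes (blue) and 3 pericyte genes (orange) in each of 6 libraries (x axis, mouse number). Bars are 95% exact Poisson intervals of the summed expected count, scaled to rescaled TPM, and leave out error from the split between isoforms. The dashed line is the median. Cldn5 stands at 25.8 and 28.1 in mice 678 and 687 and at 16.6 to 17.8 in the others, while Slco1a4 is highest in mouse 688 at 21.1.

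Pdgfrb encodes the receptor through which pericytes are recruited to vessels (chromosome 18, 61045150 to 61085061, plus strand). It was at 3.56, 3.29, 2.81, 3.29, 2.75 and 2.73 TPM, and at 13.7, 13.4, 11.5, 12.9, 12.1 and 9.47 rescaled TPM. Mouse 703 was lowest, and the other 5 libraries spanned 11.5 to 13.7. Its counts were 493 to 786 and its range on TMM-scaled CPM was 1.5-fold (counting interval 1.34 to 1.68).

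Rgs5, a regulator of G protein signalling abundant in brain pericytes, lies on the plus strand of chromosome 1 from 169655501 to 169695813. Its TPM was 9.24, 10.04, 8.05, 7.35, 6.38 and 7.11, and its rescaled TPM 35.4, 40.9, 32.99, 28.8, 28.1 and 24.7. Mouse 687 was highest and mouse 703 lowest, and it had the most counts of the members, 963 to 1799. The range was 1.68-fold on TMM-scaled CPM (counting interval 1.56 to 1.82).

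Vtn encodes vitronectin, an adhesive matrix protein that brain pericytes secrete (chromosome 11, 78499091 to 78502324, plus strand). Its TPM was 20.53, 20.15, 14.53, 16.46, 15.81 and 16.07, the highest level per length of the members in every library. Rescaled, it was at 78.8, 82.1, 59.5, 64.5, 69.7 and 55.8. Mice 678 and 687 were high, mouse 703 was low, and the range on TMM-scaled CPM was 1.48-fold (counting interval 1.36 to 1.61) over 868 to 1426 counts.

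By median TPM the order was Vtn (16.3), Rgs5 (7.7), Cldn5 (4.66), Slco1a4 (4.44), Flt1 (3.91), Pdgfrb (3.05), Pecam1 (2.08) and Kdr (0.755). The ranges over libraries did not overlap between Vtn and Rgs5, between Pdgfrb and Pecam1, or between Pecam1 and Kdr. Rgs5 was above Cldn5, and Flt1 above Pdgfrb, in 6 of 6 libraries although their ranges overlapped. Cldn5, Slco1a4 and Flt1 could not be put in a fixed order. Cldn5 was above Slco1a4 in 4 of 6 libraries, and Slco1a4 above Flt1 in 4 of 6.

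The 5 endothelial genes summed to 18.6, 19.4, 15.5, 15.9, 12.2 and 16.2 TPM, a 1.59-fold range. The 3 pericyte genes summed to 33.3, 33.5, 25.4, 27.1, 24.9 and 25.9 TPM, a 1.34-fold range. The pericyte sum was 1.6 to 2.04 times the endothelial sum, highest in mouse 700 and lowest in mouse 703. Without mouse 700 the endothelial range narrowed to 1.25-fold. On rescaled TPM the sums ranged 1.47-fold and 1.52-fold, and the lowest library was 700 for the endothelial sum and 703 for the pericyte sum.

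Across the members, mouse 687 gave the highest rescaled TPM for 6 of 8 genes and mouse 703 the lowest for 6 of 8. Mouse 678 was among the 2 highest libraries for 6 genes, and mouse 703 among the 2 lowest for 7. Mouse 703 also had the lowest sums of perivascular fibroblast markers (119 against 162 to 222 rescaled TPM), oligodendrocyte markers (1472 against 1692 to 2581), astrocyte markers (2462 against 2680 to 2871) and smooth muscle markers (21.3 against 22.8 to 24.8). It had the highest sum of neuron markers, 7453 against 6803 to 7250. Not every vascular list was low in mouse 703. Its 20 other endothelial markers summed to 258 rescaled TPM, the second highest of the 6 libraries (228 to 283). Its sums of arterial markers (78.9 against 69.6 to 75.4) and venous markers (120 against 57.1 to 90.6) were the highest, while that of the other pericyte markers was the lowest (63.4 against 71.1 to 76.3). In mouse 703, Efnb2 made up 68.3 of the arterial sum and Nr2f2 88.4 of the venous sum, and neurons make both genes too. Those high sums therefore do not describe vessels alone. Microglia markers summed to 409 to 502 rescaled TPM over the 6 libraries, lowest in mouse 678 and highest in mouse 698. The part of any of these lists in the low levels of the members in mouse 703 was not tested. Messages of red cells, which mark blood left in the vessels, ran from 10.6 rescaled TPM in mouse 688 and 26.1 in mouse 700 to 89.3 to 131 in the other 4 libraries, mouse 703 among them. Choroid plexus markers were low, with 1 of 5 detected and a summed level of 5.06 to 12.9 rescaled TPM. Otx2, which defines that tissue, had at most 2 counts. Ttr, the most abundant of them by median TPM, ran from 0.868 rescaled TPM in mouse 703 to 8.82 in mouse 700, on 9 to 93 counts. Whether choroid plexus was carried into some libraries was not tested.

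**Figure D2:**
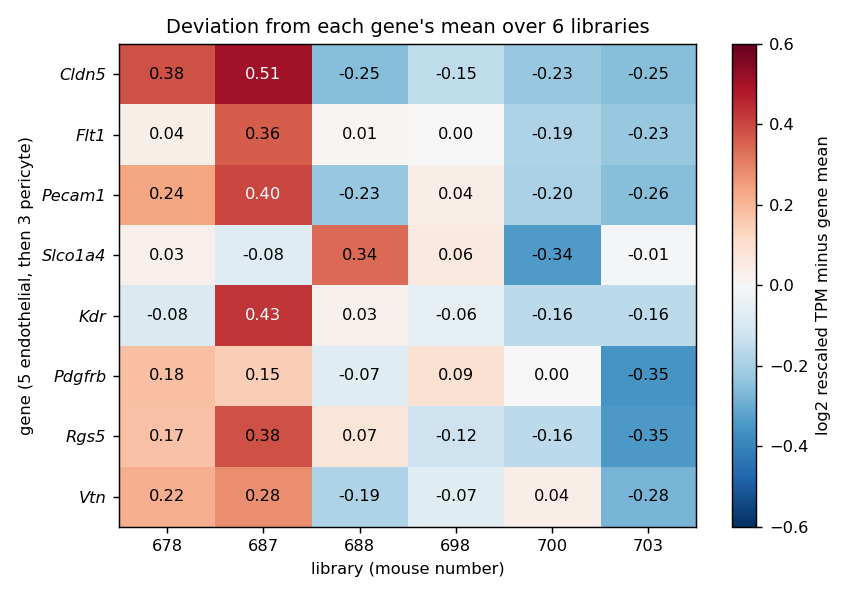
Deviation of each gene from its own mean over the 6 libraries, on log2 rescaled TPM, with genes in rows and libraries (mouse number) in columns, red above and blue below the mean. Mouse 687 is above the mean in 7 genes and by 0.51 for Cldn5, mouse 703 is below it in all 8, and Slco1a4 differs with 0.34 in mouse 688.

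The spread of the members was set against that of all detected genes by their excess variability, the SD of log2(TMM CPM + 1) over libraries minus the running median SD of genes of like level. The top 5.0% of detected genes, 750 of 15002, were called most variable, and 0 of the 8 members were among them. Cldn5 came nearest at rank 777, followed by Rgs5 at rank 1016, Vtn at 1267, Flt1 at 1577, Pecam1 at 1699 and Pdgfrb at 2101. Slco1a4, at rank 4242, and Kdr, at rank 4755, were nearer the middle of the detected genes. Cldn5 had an excess SD of 0.188, just outside the limit of 0.191. Without mouse 698, 700 or 703, Cldn5 passed the limit, and with a filter of 1 count in any library both Cldn5 and Rgs5 did. Leaving out 1 library also moved other ranks. Without mouse 687, Cldn5 moved to rank 1376, Flt1 to rank 6423, Pecam1 to 10136, Kdr to 14869 and Rgs5 to 1742. Without mouse 703, Pdgfrb moved to rank 6635. Without mouse 688, Slco1a4 moved to rank 8757, and without mouse 700 to 7487. On log2(TPM + 1), Flt1 was at rank 7140, Pecam1 at 4501, Kdr at 12078, Pdgfrb at 12150, Rgs5 at 3185 and Vtn at 4837, so the order of ranks is that of 1 scale and these 6 libraries.

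Whether the members rose and fell together was asked by Pearson and Spearman correlation of log2 rescaled TPM over the 6 libraries, with exact two-sided permutation tests and Benjamini-Hochberg adjustment over all 28 pairs. The values of Cldn5 fell into clusters of 2 and 4 libraries, too few for a test within either. No pooled r is therefore given for its 7 pairs. Without mice 678 and 687, r of Cldn5 over the other 4 libraries ran from -0.13 with Slco1a4 to 0.99 with Pecam1, and was not tested. The 7 pairs of Cldn5 were kept in the adjustment, and counts are given without them. Of the 21 pairs without Cldn5, 18 had r above 0. Of the 15 pairs that held neither Cldn5 nor Slco1a4, all 15 had r above 0, from 0.44 to 0.94 with a median of 0.80. Slco1a4 was set apart after its values were seen, and the share of other gene pairs with r above 0 was not computed. Slco1a4 gave r from -0.38 to 0.18 with the other 6 genes. That range depends on mouse 687, without which Slco1a4 gave r from -0.36 to 0.88 over 5 libraries, highest with Kdr. Without mice 687 and 703, r of Slco1a4 with Flt1 was 0.83. Of the 21 pairs without Cldn5, 7 had an unadjusted p under 0.05 and 1 an adjusted p under 0.05.

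That pair was Flt1 with Rgs5, an endothelial and a pericyte gene, at r = 0.92 and rho = 1.0 over n = 6 libraries (exact permutation p = 0.0014 and 0.0028, adjusted p = 0.019 and 0.039). Without mice 687 and 703, the libraries farthest from the median of Flt1, r was 0.72. Flt1 with Kdr had r = 0.94 and rho = 0.77 (exact permutation p = 0.014 and 0.1, adjusted p = 0.053 and 0.17, n = 6), and r = 0.72 without the same libraries. Within the pericyte genes, Pdgfrb and Vtn had r = 0.86 and rho = 0.89 (exact permutation p = 0.015 and 0.033, adjusted p = 0.053 and 0.13, n = 6), and r = 0.79 without mice 678 and 703. Without mouse 687, r stayed above 0 in 14 of the 15 pairs that held neither Cldn5 nor Slco1a4, and the lowest was -0.11. Of the 21 pairs without Cldn5, 0 passed the adjusted threshold on TMM-scaled CPM, 3 did without mouse 688, and 0 did without any other single library. Libraries of 1 genotype may share a level, so a shared genotype and shared vascular content cannot be told apart in these correlations.

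**Figure D3:**
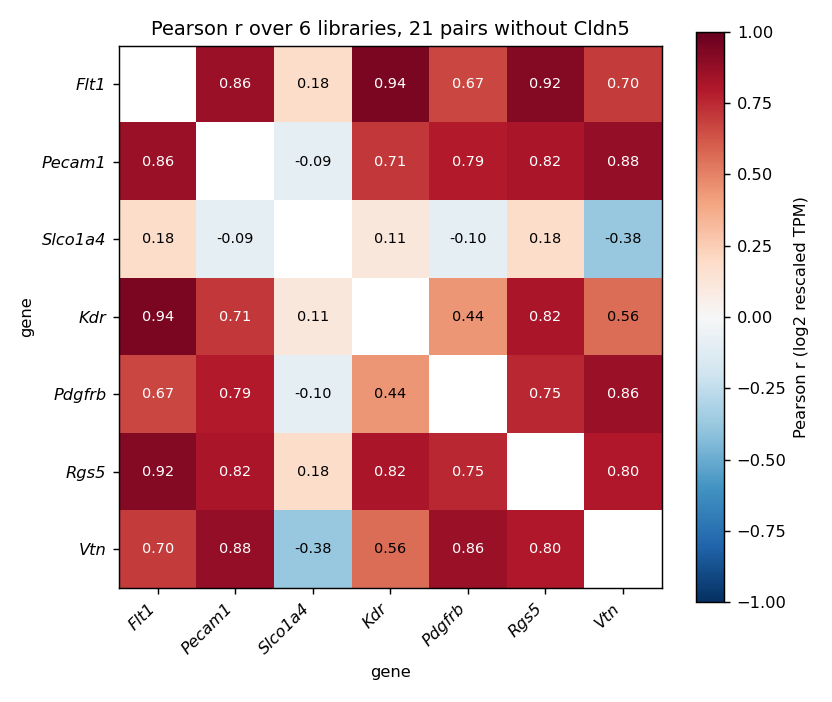
Pearson r of log2 rescaled TPM over 6 libraries for the 21 pairs of 7 genes without Cldn5 (both axes list the genes, colour and number give r). The Slco1a4 row runs from -0.38 to 0.18, and all other pairs lie between 0.44 and 0.94.

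The isoform values were split by the authors' RSEM run, which shares out reads that fit several transcripts. Flt1 had 6 isoforms listed, 4 of them above 0 in at least 1 library. Full-length Flt1-202 made up 60.6%, 60.4%, 60.7%, 56.2%, 57.7% and 66.9% of Flt1 TPM. Soluble-form Flt1-203 made up 27.4%, 28.7%, 24.6%, 23.9%, 20% and 24.2%, highest in mouse 687 and lowest in mouse 700. Because Flt1-203 reads on into an intron and total RNA was sequenced, reads of unspliced Flt1 RNA may be counted in this share, which was not tested. The share of Flt1-203 in expected counts was similar, 22.2% to 29.2% with a median of 25.8%, against a median of 24.4% of TPM. Flt1-201, a transcript with no coding sequence, held 8.85% to 21.6% and was highest in mouse 700, where the soluble form was lowest. With coding isoforms alone, the range of Flt1 widened from 1.59-fold to 1.82-fold in TPM.

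**Figure D4:**
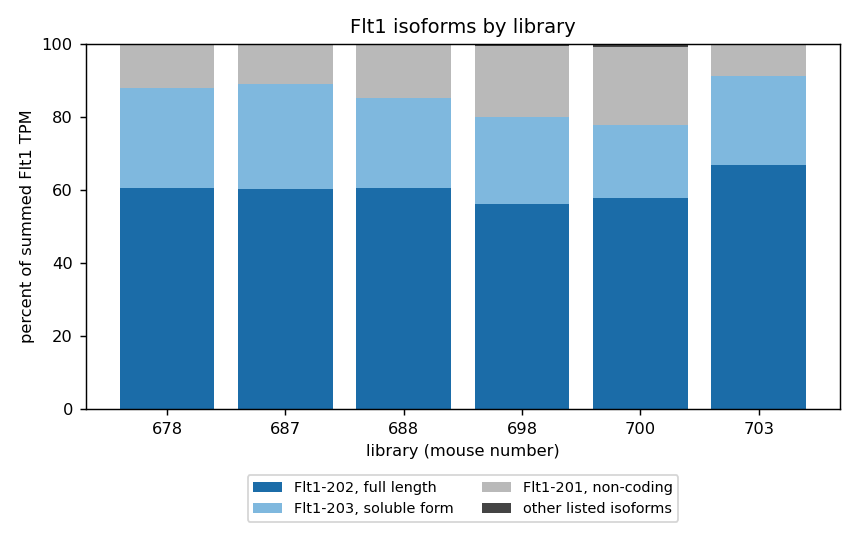
Percent of summed Flt1 TPM (y axis) from each isoform in each of 6 libraries (x axis, mouse number), as stacked bars. Flt1-202 (dark blue) holds 56.2% to 66.9%, Flt1-203 (light blue) 20% to 28.7% and Flt1-201 (grey) 8.85% to 21.6%.

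For Slco1a4, a short annotated isoform of 622 bases, Slco1a4-202, held 32.7% to 42.3% of its TPM on only 21 to 34 counts per library, 6.57% to 9.84% of the gene's counts. The TPM of Slco1a4 therefore rests in part on few reads divided by a short length, and its range was 1.71-fold in TPM against 1.45-fold on TMM-scaled CPM. Cldn5 and Rgs5 were each carried by 1 isoform in every library. Kdr-201 held 95% to 100% of Kdr TPM and Vtn-201 94.3% to 97.9% of Vtn TPM. Pdgfrb-202 was above 0 in mouse 678 alone, at 5.34% of Pdgfrb TPM. The split of Pecam1 was not stable, with Pecam1-203 at 22.1% to 63% and Pecam1-202 at 9.83% to 38.7%, on 22 to 142 counts for either isoform.

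Likeness to the members was described for every detected gene by Pearson r over the 6 libraries with the mean profile of the 5 endothelial genes, with that of the 3 pericyte genes, and, added after the values were seen, with Slco1a4. These profiles share their libraries and depth with every gene, and n = 6, so r is a description with no test. At r of at least 0.8, 2.17% of detected genes were called for the endothelial profile, 3.05% for the pericyte profile and 3.59% for Slco1a4. The median r over all detected genes was -0.03, -0.10 and 0.16, in that order. With the gene itself left out of the profile, Rgs5 had r = 0.93 with the endothelial profile, Vtn 0.73 and Pdgfrb 0.67, while Slco1a4 had r = -0.00 with its 4 endothelial partners.

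Of 20 other endothelial markers, all detected, 6 had r of at least 0.8 with the endothelial profile, and the median was 0.36. These were Cd93 (0.93), Ly6a (0.88), Esam (0.85), Cdh5 (0.82), Tek (0.82) and Ly6c1 (0.81), where Cdh5 encodes the junction cadherin VE-cadherin and Tek the angiopoietin receptor Tie2. Adgrl4, at 0.80 when rounded, lay just under the limit. Pltp, a phospholipid transfer protein with the highest median TPM of that list at 12.2, had r = 0.50, and Egfl7, a matrix protein secreted by endothelium, had r = -0.51. The 20 markers summed to 228 to 283 rescaled TPM, lowest in mouse 700 and highest in mouse 687. Of 11 detected of 12 other pericyte markers, 2 had r of at least 0.8 with the pericyte profile, and the median was 0.30. These were Abcc9 (0.88), a subunit of the pericyte potassium channel, and Ndufa4l2 (0.85), the latter on 20 to 37 counts. With the endothelial profile 2 passed as well, Abcc9 (0.84) and Art3 (0.82, on 35 to 54 counts), and the median was -0.06. Higd1b had 4 to 18 counts and was not detected by the filter. Ifitm1 (4.19 TPM) and Cspg4 (2.78 TPM, the NG2 proteoglycan, which oligodendrocyte precursors make as well) had the highest medians of this list, with r = -0.25 and -0.52. Without mouse 700 the endothelial count was 3 of 20, against 5.78% of all detected genes, and without mouse 703 the pericyte count was 0 of 11, against 3.92%.

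Among barrier transporters and junction genes, 0 of 12 had r of at least 0.8 with either profile and 2 of 12 did with Slco1a4. Those were Tfrc (0.98), the transferrin receptor that brings iron across the endothelium and is made in neurons too, and Slc7a5 (0.86), a carrier of large neutral amino acids. Outside this list, 1 of 5 neuron markers (Syt1, 0.93) and 1 of 6 microglia markers (C1qa, 0.90) reached 0.8 with Slco1a4 too. So did 1 of 5 venous markers (Vcam1, 0.87) and 1 of 6 detected vitronectin-binding integrins and partners (Itgb1, 0.84). Median r with Slco1a4 was 0.45 for the barrier list, 0.66 for microglia markers, 0.15 for neuron markers and 0.16 for all detected genes. Tfrc was at 64.5, 56.2, 77.4, 60.7, 47.7 and 62.1 rescaled TPM, with mouse 688 highest and mouse 700 lowest as for Slco1a4. Slc2a1, the glucose transporter GLUT1, had a median of 19.4 TPM and r = 0.67 with Slco1a4 and -0.21 with the endothelial profile. Tjp1, a junction scaffold also found outside vessels, had a median of 21 TPM and r = -0.82 with the endothelial profile.

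Ligands that act on the members were measured in the same libraries. Of 8 VEGF ligands and co-receptors, 1 had r of at least 0.8 with the endothelial profile, Vegfc at 0.85 on 42 to 58 counts. Vegfa, a ligand of Flt1 and Kdr, had a median of 13.6 TPM and r = 0.66, and Vegfb, a ligand of Flt1, had 31.8 TPM and r = 0.20. Among 10 genes listed under PDGF, angiopoietin and TGF-beta signals, 2 passed, Tgfbr2 (0.87) and S1pr1 (0.91). S1pr1 encodes a sphingosine 1-phosphate receptor and belongs to none of these pathways. Pdgfb, the ligand of Pdgfrb, which neurons make as well, went the other way, with r = -0.95 with the endothelial profile and -0.86 with the pericyte profile. It was at 27.9, 22.1, 31.3, 30.7, 32.4 and 33.4 rescaled TPM, lowest in mouse 687, where most members were highest. Pdgfb was named after its values were seen, and the share of detected genes with r as low, here or for Tjp1, was not computed. Pdgfa had the highest median of the list's ligands, 15.7 TPM, and r = -0.33 with the endothelial profile.

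Of 14 genes of the Wnt pathway that maintains the barrier, 1 passed with the endothelial profile, Foxf2 at 0.85, and 1 with Slco1a4, the receptor Fzd4 at 0.92. The co-receptor gene Lrp5, at 0.80 when rounded, lay just under the limit for the endothelial profile. Wnt7b, a ligand from neural cells (median 10.2 TPM), had r = 0.02 with the endothelial profile, and the co-receptor Lrp6 (8.93 TPM) had -0.13. No gene of 10 in the vascular basement membrane list passed for either profile. Its most abundant genes were Sparc (43.6 TPM), which glia make as well, and the laminin chain Lamc1 (4.96 TPM), with r = -0.44 and -0.12 with the endothelial profile. Integrin subunits that bind vitronectin gave no gene at 0.8 with the pericyte profile among 6 detected of 7, and Itgav (24.4 TPM) and Itgb5 (10.5 TPM) had r = -0.38 and 0.78.

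The arterial list had a median r of 0.49 with the endothelial profile and the venous list 0.37, beside 0.36 for the 20 other endothelial markers and -0.03 for all detected genes. With the pericyte profile the smooth muscle list had a median of 0.46 and the perivascular fibroblast list 0.51, beside 0.30 for the other pericyte markers and -0.10 for all detected genes. Among 5 detected of 7 arterial markers, 1 passed with the endothelial profile, Gja4 (connexin 37) at 0.81, and Efnb2, the most abundant at 15.7 TPM and made in neurons too, had r = -0.35. None of 5 venous markers passed with either profile, and Nr2f2 (10.6 TPM), which interneurons express as well, ran from 23.9 in mouse 678 to 88.4 in mouse 703 in rescaled TPM. Smooth muscle markers were low, with 5 of 8 detected, and the contractile genes Acta2 and Myh11 had medians of 0.57 and 0.12 TPM. Among 8 perivascular fibroblast markers, 1 passed with the pericyte profile, Slc6a13 at 0.89. Igf2 (26.8 TPM) and Dcn (7.38 TPM), the most abundant of these, had r = 0.70 and 0.32 with the pericyte profile. Of 6 astrocyte markers, the connexin gene Gja1 passed with the endothelial profile (0.84) and the water channel gene Aqp4 with the pericyte profile (0.94). The other astrocyte markers passed with neither. With the endothelial and pericyte profiles in turn, Slc1a2 had r = 0.46 and 0.67 and Slc1a3 0.24 and -0.03. Gfap had 0.32 and 0.55, and Aldh1l1 0.00 and 0.46.

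**Figure D5:**
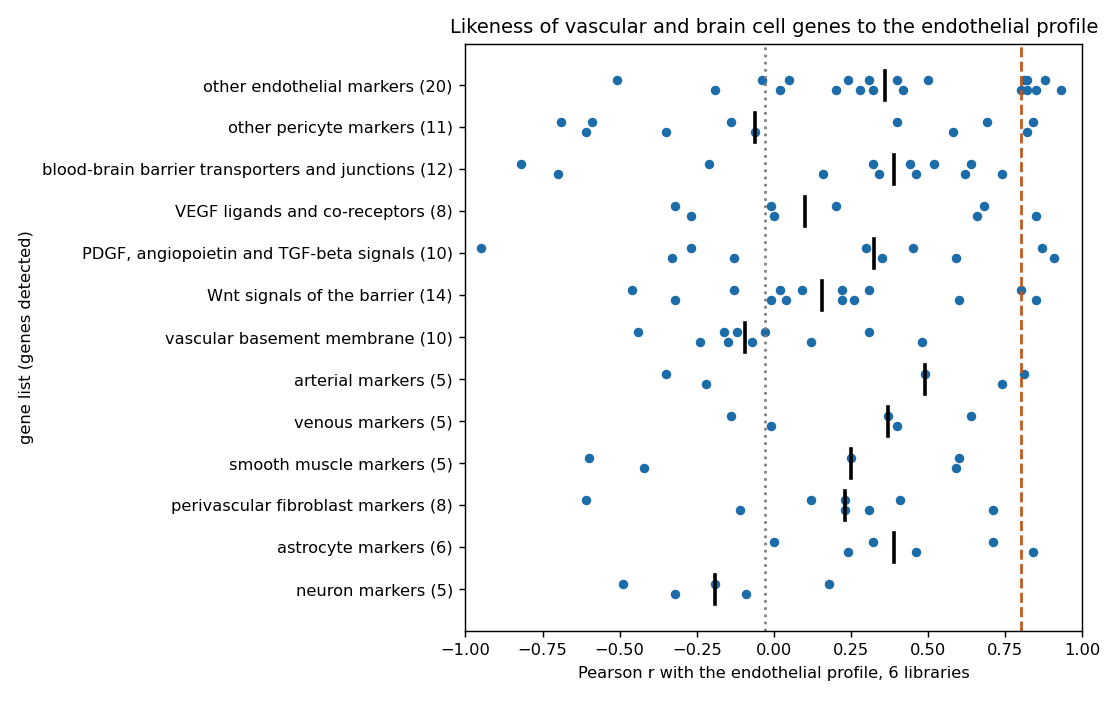
Pearson r over 6 libraries (x axis) of each detected gene with the mean profile of the 5 endothelial genes, 1 row per gene list with the number of genes detected, points for genes, a black bar for the list median, a dotted line for the median of all detected genes (-0.03) and a dashed line at 0.8. The other endothelial markers spread from -0.51 to 0.93 around a median of 0.36, and the neuron markers have a median of -0.19.

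The 5 genes most like either cell-type profile were in none of the vascular lists. For the endothelial profile these were Ccng1 (r = 0.993), Pros1 (0.990), Odc1 (0.979), Smpdl3a (0.974) and Onecut2 (0.974). Ccng1 encodes cyclin G1, Pros1 the anticoagulant protein S and Odc1 ornithine decarboxylase. For the pericyte profile they were Zfp105 (0.991), Sox9 (0.989), the lincRNA A930029G22Rik (0.986), Hscb (0.983) and Nudt7 (0.983), where Sox9 is a transcription factor of astrocytes in adult brain. Closest to Slco1a4 were Yy1 (0.997), Sobp (0.988), Zfp866 (0.985), Uri1 (0.985) and Tfrc (0.980).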

How the data were processed

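RNA-seq libraries of 6 mice were used. Per the study's methods and the submitters' processing notes, reads were trimmed by the authors (cutadapt), mapped to mm10 (STAR) and turned into transcript values (RSEM). Software versions are stated in neither. The authors deposited expected counts per transcript, not normalized, and TPM per transcript. A further 18 value columns were not used. Transcript identifiers were looked up in GENCODE M21 (141441 of 142351, 99.36%; the 910 others held 0.246% to 0.272% of counts) and summed per gene, and summed expected counts were rounded. Rescaled TPM divides by the sum over nuclear protein-coding genes. TMM-scaled CPM came from edgeR 4.0.16 in R 4.3.3 and size factors from DESeq2 1.42.0, with a pseudocount of 1 and a running window of 501 genes. All 6 libraries were analysed together as cortex, with no genotype, no mean and no test between libraries. Counting intervals are exact at 95% and cover counting error only. Named were all members, the 2 genes of highest median TPM in each of 22 lists, and the 5 genes most like each profile; other genes, and the likeness to Slco1a4, were chosen after their values were seen, and not all of the named genes are printed. The members and lists were chosen with earlier results of these data known. The code for ranking and likeness was run on simulated counts with planted changes larger than those of the members. Planted likeness was scored on well-counted genes only, so that run checks the code and not these results. Alternatives were other units, filters and pseudocounts, coding isoforms alone, and leaving out each library.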

Additional observations from a re-analysis of the deposited data

Results flagged for a closer look

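Of 35 quantities examined over the 6 libraries, 3 had a library far from the others by Dixon's ratio at its 95% limit, a rule that chance meets in about 1 in 20. Kdr was at 4.11 rescaled TPM in mouse 687 and at 2.74 to 3.11 in the other 5. The summed vitronectin-binding integrins and partners were at 227 rescaled TPM in mouse 703 and at 212 to 215 elsewhere. The summed immediate early genes were at 2093 rescaled TPM in mouse 688 and at 547 to 1041 elsewhere.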

How the results depend on the processing

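The range of the endothelial sum, 1.59-fold in TPM, was 1.47-fold on rescaled TPM and 1.49-fold on TMM-scaled CPM, and 1.25-fold to 1.59-fold with 1 library left out. That of the pericyte sum, 1.34-fold, was 1.52-fold on rescaled TPM and 1.56-fold on TMM-scaled CPM, and 1.32-fold to 1.34-fold with 1 library left out. For single members, 63 ranges under an alternative moved by less than the spread between libraries and 9 by more. The members called most variable were 2 when genes needed only 1 count in any library, and 0 to 1 with 1 library left out. Over all 28 pairs, those with Cldn5 included, the pairs with an adjusted p under 0.05 numbered 2 in the reported setting, 1 on TPM as deposited, 0 on TMM-scaled CPM and 0 to 6 with 1 library left out. Other endothelial markers with r of at least 0.8 numbered 3 to 7, and other pericyte markers 0 to 3, with 1 library left out. The cause of these changes was not tested. No paired analysis was possible because no source used here ties a library to a replicate number or a genotype. At 146 to 259 counts, Kdr is the member that depth limits most.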
